A study of Mus musculus with 2 samples.

Results

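The 8 genes Fos, Fosb, Fosl1, Fosl2, Jun, Junb, Jund and Batf encode subunits of the transcription factor AP-1. They were taken by symbol from the mouse annotation GENCODE M21, where all 8 were found among 21938 protein-coding genes of chromosomes 1 to 19, X and Y. Their promoters, the distal open chromatin around them and the footprints inside both were described in the right cerebral cortex of adult female mice aged 18 to 20 months. The animals were B6CASTF1/J, a first-generation hybrid of C57BL/6J and CAST/EiJ, and the labels give no transgene, no deletion and no treatment. There were 2 biological replicates in 1 group and no control, so no test between conditions was possible. Both carry 1 shared donor identifier, and the sources used here do not say whether they came from separate animals. The spread between them may therefore be technical.

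AP-1 is a dimer of basic leucine zipper proteins, in which a Fos protein pairs with a Jun protein, or 2 Jun proteins pair with each other. The dimers bind the AP-1 site and, in some pairings, the cyclic AMP response element (CRE). In neurons, several of these genes, Fos, Fosb, Jun and Junb among them, are immediate early genes, switched on within minutes of activity by factors already present in the cell. Serum response factor acts at CArG boxes, CREB at CREs and MEF2 factors at MEF2 boxes. DNase-seq maps where the nuclease DNase I can cut chromatin, and a footprint is a short protected stretch inside a cut region. The method reads accessibility and not transcript level.

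The sequences below are the stretches of these loci in which the factor motifs described later lie. They were read from the GRCm38.p6 assembly (mm10), which is the C57BL/6J sequence. The CAST/EiJ allele that the hybrids also carry is not shown. Each runs 5′ to 3′ on the gene's strand, and capitals mark bases that lay inside a footprint of both replicates. The first is the Fos promoter upstream of the main start site (chr12:85473556-85473854, plus strand), with a CArG box near its left end and a TGACGT near its right end. The second lies in the first intron of Fos (chr12:85474615-85474690, plus strand), just before the start of a shorter annotated transcript. The third is the Fosb promoter (chr7:19310283-19310393, minus strand), and the fourth the Jun promoter (chr4:95052238-95052534, minus strand), which holds a MEF2 box and a pair of AP-1-like sites inside footprints. The fifth is the Jund promoter with its CRE (chr8:70698705-70698886, plus strand). The sixth lies before a non-coding Junb transcript that starts downstream of the coding one (chr8:84976594-84976683, minus strand). The last, from the Batf promoter (chr12:85686582-85686667, plus strand), holds a TGACGT with no footprint and is shown for contrast.
Fos upstream: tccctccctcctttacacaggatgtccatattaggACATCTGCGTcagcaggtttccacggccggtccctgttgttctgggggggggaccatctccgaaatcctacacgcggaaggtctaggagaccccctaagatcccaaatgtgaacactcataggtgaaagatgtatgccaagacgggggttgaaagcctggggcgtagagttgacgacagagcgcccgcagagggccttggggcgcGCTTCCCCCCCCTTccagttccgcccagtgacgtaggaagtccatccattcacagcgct
Fos internal: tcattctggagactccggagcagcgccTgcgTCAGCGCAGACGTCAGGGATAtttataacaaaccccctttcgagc
Fosb upstream: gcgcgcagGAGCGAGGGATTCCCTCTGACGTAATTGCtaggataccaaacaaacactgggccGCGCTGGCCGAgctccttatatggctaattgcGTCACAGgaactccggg
Jun upstream: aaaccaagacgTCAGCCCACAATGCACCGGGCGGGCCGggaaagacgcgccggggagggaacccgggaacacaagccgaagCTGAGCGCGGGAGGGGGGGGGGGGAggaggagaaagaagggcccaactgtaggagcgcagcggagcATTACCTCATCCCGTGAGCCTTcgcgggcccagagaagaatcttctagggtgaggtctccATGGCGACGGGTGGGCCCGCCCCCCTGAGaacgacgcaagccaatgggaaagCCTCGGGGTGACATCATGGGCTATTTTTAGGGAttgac
Jund upstream: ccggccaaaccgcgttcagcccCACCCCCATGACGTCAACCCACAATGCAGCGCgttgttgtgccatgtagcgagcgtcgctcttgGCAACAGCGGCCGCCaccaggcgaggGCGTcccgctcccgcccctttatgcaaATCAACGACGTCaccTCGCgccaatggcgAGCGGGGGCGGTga
Junb downstream start: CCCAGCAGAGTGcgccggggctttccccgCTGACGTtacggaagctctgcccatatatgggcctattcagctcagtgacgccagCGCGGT
Batf upstream: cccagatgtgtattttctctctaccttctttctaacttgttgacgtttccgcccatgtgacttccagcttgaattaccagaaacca

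An accessible promoter was found in both replicates for 7 of the 8 genes, and Batf was the gene without one. The promoter of a gene covered every annotated start site with 500 bp to each side, and its value was the deposited signal of the strongest peak overlapping it. The background was 57.9% of protein-coding genes with such a peak in both replicates. Levels ran from the Jun promoter, among the strongest of all genes, to that of Fosl1, the weakest of the 7. The Jun genes Jun, Jund and Junb had the 3 highest means, and the 4 Fos genes followed. Every level is given with the SD over n = 2 replicates.

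Among the Fos genes, Fos encodes the founding member of the family and is widely used as a mark of recently active neurons. Its strongest promoter peak had a value of 1.75 in replicate 1 and 3.06 in replicate 2 (mean 2.41 ± 0.922). The replicates differed in which start site held that peak. In replicate 1 it lay at the internal start site in the first intron, with its midpoint at position -70. In replicate 2 it lay at the main start site, at -50, and the internal peak was weaker at 2.31. At the main start site replicate 1 had a pair of adjoining peaks of 1.58 and 1.38 in place of 1 peak. Both sites were thus open in both libraries, and their order was not stable.

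Fosb, whose truncated product ΔFosB accumulates in neurons under repeated stimulation, had values of 3.09 and 4.81 (mean 3.95 ± 1.22). Its single promoter peak lay some distance upstream, with midpoints at -280 and -270, and did not reach the start site itself. Fosl2, which encodes Fra-2, had values of 3.31 and 3.91 (mean 3.61 ± 0.424), the smallest SD of the 7. Fosl1, which encodes Fra-1, had the lowest values of any member with a peak, 0.880 and 1.83 (mean 1.35 ± 0.670). If 1 step of the deposited values is 1 read, the Fosl1 value in replicate 1 stood for 177 reads, with 152 to 205 as the exact 95% Poisson interval. In replicate 2 the value stood for 205, with 178 to 235. Only counting error enters these intervals. Whether a value counts the reads over a whole peak is not stated in the sources used here.

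Jun encodes c-Jun, the main target of the JNK kinases, and had the strongest promoter of the set, with values of 5.46 and 9.20 (mean 7.33 ± 2.64). Its value lay at the 94.4th and 99.4th percentile of genes with a promoter peak in both replicates. Jund, the most constantly expressed of the Jun genes in many tissues, had values of 4.96 and 6.83 (mean 5.89 ± 1.33), at the 91.3rd and 94.4th percentile. Junb, an immediate early gene in cortex, had values of 4.08 and 5.80 (mean 4.94 ± 1.22). A further Junb peak lay at the start of a non-coding transcript downstream of the coding one, with values of 3.38 and 4.17. All 3 Jun genes therefore lay above every Fos gene in both replicates.

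Batf encodes a short AP-1 protein best known from lymphocytes, where it pairs with Jun proteins. It had no promoter peak in either replicate and no footprint in its 2002 bp of promoter windows. None of those bases lay in a deposited interval with a false discovery rate (FDR) below 0.05. At the other end, all 1001 bases of the Jun window lay in intervals with an FDR of at most 0.001 in both replicates. For Jund that share was 100% in replicate 1 and 97.2% in replicate 2. For Fosl1 it was 18.1% and 31.3% of 1375 bases. The share did not follow the peak values in every gene, since Fosb, with the stronger peak, had 37.0% and 31.1%, and Fos 61.7% and 43.9%.

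**Figure D1:**
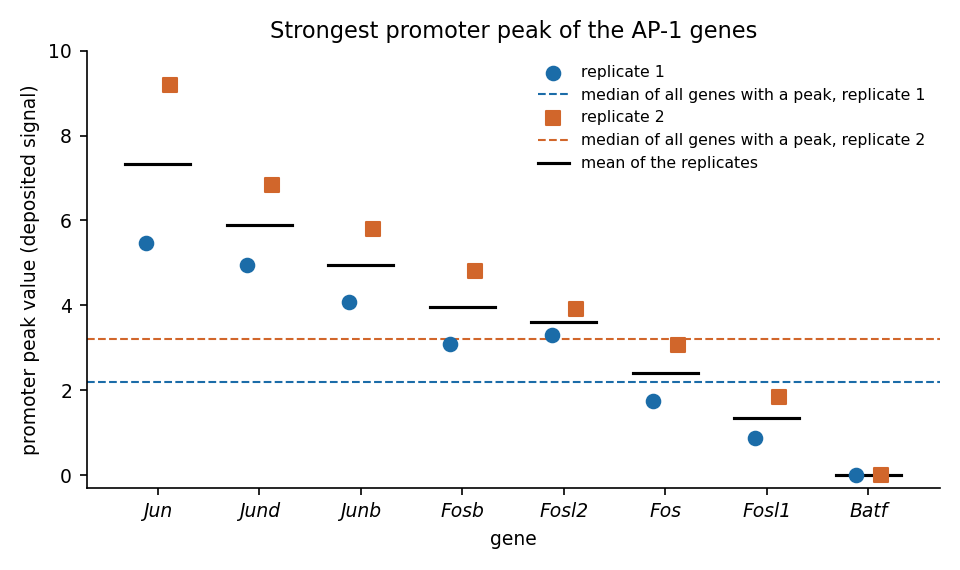
Deposited signal of the strongest promoter peak (vertical axis) for each of the 8 genes (horizontal axis), with circles for replicate 1, squares for replicate 2, a black bar for their mean and dashed lines for the median over genes whose promoter had a peak in both. Jun, Jund, Junb, Fosb and Fosl2 lay above the median of their replicate, Fos and Fosl1 lay below it, and Batf, drawn at 0, had no peak.

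By mean, the order was Jun, Jund, Junb, Fosb, Fosl2, Fos and Fosl1, but most steps in it were smaller than the SD over replicates. The step from Fosl2 down to Fos was 1.20, and that from Fos to Fosl1 was 1.05, each larger than the larger SD of the pair, 0.922. The other 4 steps were smaller than the larger SD of their pair. These SDs include the general offset between the libraries, described below. Fosb and Fosl2 changed places between replicates, while all other neighbours kept their order in both. Of the 8 genes, 5 lay above the median of genes with a promoter peak, which was 2.19 in replicate 1 and 3.20 in replicate 2. Fos itself lay at the 38.9th and 47.4th percentile and Fosl1 at the 14.0th and 23.3rd. The gene most used as a mark of neuronal activity thus had a promoter of middling accessibility among the open promoters of this tissue. Among all protein-coding genes, the Fos value ranked at the 64.6th percentile in replicate 1 and the 69.6th in replicate 2.

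All 7 genes had a higher value in replicate 2, as did most genes. The median log2 ratio of replicate 2 to replicate 1 was 0.50 over 12692 genes, with the central 95% between -0.14 and 1.23. Fosl1 had the largest ratio of the set at 1.06 and Fosl2 the smallest at 0.24. All 7 lay inside that central range, so no member stood apart from the general offset between the libraries. The sources used here do not say how the authors scaled the values.

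The accessible promoters were richer in CpG than the closed one. The ratio of observed to expected CpG was taken within 500 bp of the 5′ annotated start site of a gene only. It was 0.340 for Batf, and between 0.663 for Fosl1 and 0.882 for Jund in the other 7. Over all genes the median was 0.727 with a promoter peak in both replicates and 0.190 with none in either. Batf thus lay between these medians, and 4 of the accessible 7 (Fosb, Fosl2, Jun and Jund) lay above the upper one.

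Footprints touched the promoter windows of the same 7 genes in both replicates, against a background of 59.9% of protein-coding genes. Across them there were 67 footprints in replicate 1 and 70 in replicate 2. Of these, 52 (77.6%) and 51 (72.9%) touched a footprint of the other replicate. Most footprints lay upstream of the start site, 55 in replicate 1 and 57 in replicate 2. Neither count has a share over all promoters beside it, so they do not set these genes apart.

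Footprinted bases were most numerous in Jun and Junb. Footprints covered 214 bases of the Jun window in replicate 1 and 271 in replicate 2, at the 98.6th and 99.2nd percentile of genes with a promoter peak. In Junb they covered 218 and 216 bases, at the 98.7th and 97.1st percentile, over windows around 2 start sites. Jund had 148 and 200 footprinted bases, Fosl2 124 and 126, and Fos 115 and 121. In Fosb the bases numbered 83 and 110, in Fosl1 43 and 70, and the medians over all genes with a promoter peak were 75 and 89.0. Of the members with a promoter peak, only Fosl1 lay below both medians, and Batf had no footprinted base. Windows differ in length with the number of start sites, so these sums are not per length. As a share of the window, Jun led with 21.4% and 27.1% of its bases footprinted. Jund followed with 14.8% and 20.0%, and Junb with 10.9% and 10.8%. The 4 Fos genes lay between 3.13% (Fosl1, replicate 1) and 7.58% (Fosb, replicate 2), below all 3 Jun genes in both replicates. The share is lowered by every annotated start site without footprints. Jun and Jund have 1 start site each, Junb 2, and the Fos genes 3 or 4. This ranking therefore depends on the annotation as well.

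**Figure D2:**
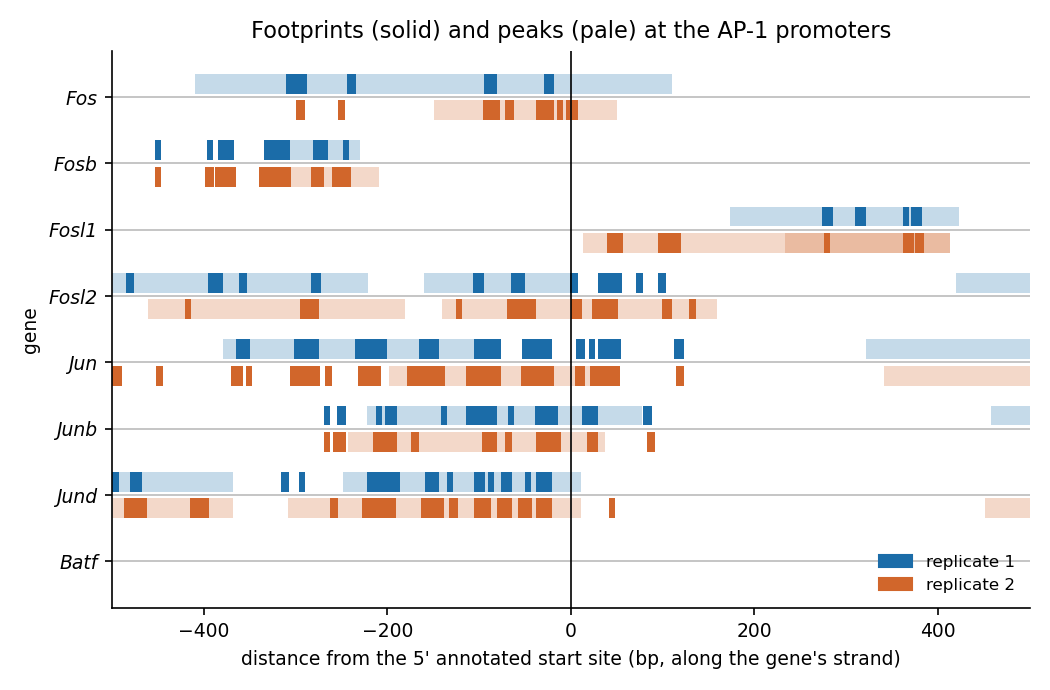
Footprints (solid) and peaks (pale) within 500 bp of the 5′ annotated start site of each gene, by distance along the gene's strand (horizontal axis, bp), with replicate 1 above and replicate 2 below each line. Jun, Junb and Jund carried runs of footprints at matching distances in both replicates, the Fosb footprints lay upstream of the start site, and Batf had neither peak nor footprint. Start sites further into a gene, such as the internal one of Fos, fall outside the frame.

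The motifs of the factors that act on these genes were then searched on both strands in the 19 start-site windows of the 8 genes. TGACGT, the shorter core of the CRE, was found in 7 of the 8 genes, all but Fosl1. This motif was added to the search after the data were seen, so its share is a description and not a test. It was present in 12 of the 19 windows (63.2%), against 15.9% of 93459 start-site windows of the same length. Windows of 1 gene overlap, so these are not 19 separate sequences. Of the 11 separate TGACGT matches, 5 lay wholly inside a footprint of both replicates, against 13.7% of all matches in promoters. That background, here and for the promoter motifs below, includes promoters without a peak, so it is not one of open promoters alone. Those 5 were in Fos, Fosb, Junb and Jund, with 2 of them in Jund on opposite strands of 1 site. In Fos the footprinted match was the internal one, at -34 from the shorter transcript's start. The match at the main Fos start site, at -64, lay partly inside a footprint in replicate 2 and outside any in replicate 1.

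The full CRE, TGACGTCA, was present in Jund and no other member, in 5.26% of the members' windows against 2.85% of all windows. It includes both of the Jund TGACGT matches at that place. It lay at position -210 and inside a footprint in both replicates, 36 bp wide in replicate 1 and 37 bp in replicate 2. Over all promoters, 38.8% of 1042 CRE matches were footprinted in both replicates. A footprinted CRE was therefore common where the motif occurred.

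At the Jun promoter, beside GC boxes, 3 motifs that no other member held lay inside footprints of both replicates. A MEF2 box, centred at -28, and TGACATCA, an AP-1-like site centred at -42, shared 1 footprint, 33 bp wide in replicate 1 and 36 bp in replicate 2. The upstream AP-1-like site TTACCTCA, centred at -160, lay inside a second footprint of 22 bp and 41 bp. Both AP-1-like sites are known from the Jun promoter, where Jun and ATF proteins bind. Their letters were added to the search with the sequence in view, so finding them at Jun was fixed by that choice. Each of the 3 motifs was present in 5.26% of the members' windows. Over all windows, the MEF2 box was present in 9.54%, TGACATCA in 4.87% and TTACCTCA in 3.01%. Over all promoters, which include those without a peak, matches inside a footprint of both replicates were rare. They were 4 of 7293 for the MEF2 box, 29 of 3167 for TGACATCA and 1 of 1883 for TTACCTCA. The single TTACCTCA match so placed was the Jun one, which was in view when the letters were chosen.

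CArG boxes, through which serum response factor acts, were found in Fos, Fosb and Junb. They were present in 26.3% of the members' windows, against 4.18% of all windows. None of the 3 boxes lay wholly inside a footprint of both replicates, as held for all but 1 of 2563 matches over all promoters. The Fos box, centred at -304, lay inside a 23 bp footprint in replicate 1. In replicate 2 a 10 bp footprint began at the base after the box and did not cover it. The Fosb box, at -262, was covered in part in both replicates, and the Junb box, at -86 from the non-coding start, in part in replicate 2.

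The AP-1 site itself, TGACTCA, was found in Fosl1 and Fosl2 only. It was present in 31.6% of the members' windows, which overlap, against 12.8% of all windows. None of the 3 matches was footprinted in both replicates, against 0.144% over all promoters. GGGCGG, the GC box, was found in all 8 genes and in 89.5% of their windows, against 54.2% of all windows. Of its 30 matches, 5 were footprinted in both replicates, in Jun, Junb and Jund, against 9.68% over all promoters. CCAAT was found in 68.4% of the members' windows and the ETS core CCGGAA in 31.6%, close to their shares of all windows, 69.2% and 31.8%. No match of either was footprinted in both replicates, against 0.917% and 3.65% over all promoters. A motif match is a match of letters and does not show which factor was bound.

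Within 100 kb of the 8 genes lay 56 distal regions open in both replicates, out of 46200 in the genome. A distal region was a merged peak region lying wholly more than 500 bp from all annotated start sites. All 8 genes had at least 1, as did 88.0% of protein-coding genes. Fosb had 12, Fos and Jun 8 each, Junb and Jund 7 each, Batf 6, Fosl2 5 and Fosl1 3, against a median of 4 over all genes (interquartile range 2 to 7). Of the 56, 21 had a member as the nearest protein-coding gene, 6 each for Fos and Fosb, 4 for Jun, 2 for Batf, 1 each for Fosl2, Junb and Jund, and 0 for Fosl1. Over all genes the median of that count was 1 (interquartile range 0 to 2), so that Fos, Fosb and Jun lay above this range and the other 5 inside it. Being near a gene does not show that a region acts on it.

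Of the 56 regions, 25 lay in introns, 10 in exons and 21 between genes. Their median value was 1.11 in replicate 1 and 1.92 in replicate 2, above the medians of all shared distal regions, 0.75 and 1.07. Of 103 distal regions in either replicate near the members, 54.4% were shared, against 57.6% over the genome. Values were higher in replicate 2 in 50 of the 56 (89.3%), against 81.1% of all shared distal regions.

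The strongest regions near Fos flanked the gene. Upstream, a region of 440 bp at -18.5 kb (chr12:85455161-85455600) had values of 4.57 and 5.31, and was intergenic with Fos as the nearest protein-coding gene. Downstream, a region of 280 bp at 11.2 kb (chr12:85485961-85486240) had values of 3.10 and 4.13, and was also intergenic. Distances are to the midpoint, from the nearest Fos start site. The mean of the upstream region, 4.94 ± 0.518, was above that of the Fos promoter itself, 2.41 ± 0.922, and the replicate values did not overlap. Activity-regulated enhancers on both sides of Fos are known from cultured neurons. Their published positions are not in the sources used here, and no region was given one of their names.

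The cores of both regions are shown with the same use of capitals, as the strongest distal regions of the best-known member. The first (chr12:85455344-85455499, plus strand) holds 3 TGACGT matches, of which 2 were covered in part by footprints in both replicates. The second (chr12:85486056-85486153, plus strand) holds 1 TGACGT and the single CArG box found among the 56 regions. Both lay inside footprints in replicate 1 and in part in replicate 2.
Fos at -18.5 kb: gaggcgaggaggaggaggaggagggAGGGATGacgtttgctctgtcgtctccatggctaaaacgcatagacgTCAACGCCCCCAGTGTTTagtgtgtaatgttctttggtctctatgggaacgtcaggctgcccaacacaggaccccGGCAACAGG
Fos at 11.2 kb: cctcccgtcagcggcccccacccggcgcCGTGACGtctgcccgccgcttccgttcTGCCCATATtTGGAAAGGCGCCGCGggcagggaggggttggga

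The other shared regions within 50 kb of Fos were weaker. At -5.8 kb the values were 1.59 and 1.89, and at 13.1 kb they were 1.44 and 2.18. Those at 22 kb were 0.582 and 1.86, and at 44.9 kb 0.671 and 0.678. A region at -37.7 kb had values of 3.31 and 3.91 but lay at a start site of the non-coding gene Gm40477, so it was not counted as distal. Further out, at 94.9 and 96.5 kb, a pair of regions had Jdp2, a repressor of AP-1, as the nearest gene. Regions open in both replicates thus lay at 3 places upstream of the Fos promoter within 50 kb, of which that at -18.5 kb was the strongest. Within the same distance, replicate 1 alone had weak distal peaks at -2.0 kb (0.417), -1.7 kb (0.586), 12.1 kb (0.477) and 17.4 kb (0.492). Replicate 2 alone had one at 33.5 kb (1.02).

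**Figure D3:**
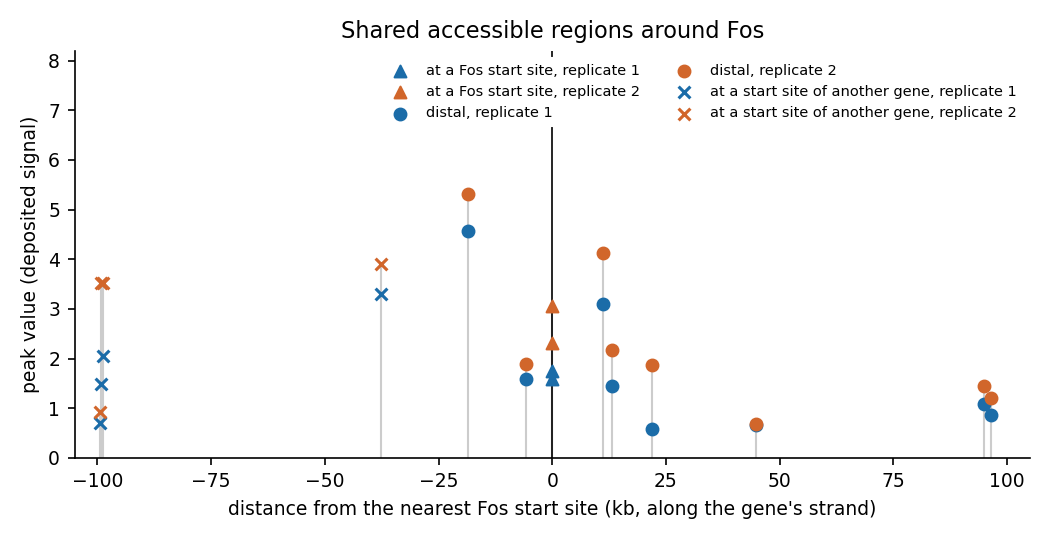
Deposited signal (vertical axis) of every region shared by both replicates within 100 kb of a Fos start site, by distance along the gene's strand (horizontal axis, kb), in blue for replicate 1 and orange for replicate 2. The distal regions at -18.5 kb (4.57 and 5.31) and 11.2 kb (3.10 and 4.13) stood above the Fos promoter in both replicates.

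Fosb had the most distal regions and held 2 of the strongest. A region inside a Fosb exon at 0.9 kb had values of 3.92 and 5.47. At 13.6 kb, inside an exon of the neighbouring gene Rtn2, values were 2.77 and 7.23, the widest replicate difference among the named regions. A region at -10.1 kb, in an exon of the non-coding gene D830036C21Rik, had values of 3.19 and 4.82 and was named after its values were seen. Among the 56 regions, 4 lay at or above the 99th percentile of shared distal regions in both replicates, at Fos -18.5 kb, Fosb 0.9 kb, Fosb -10.1 kb and Junb -7.5 kb. Over the genome 0.494% of shared distal regions did so.

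Among the Jun genes, Jun had the strongest promoter and the weakest leading distal region. That region, at 1.5 kb inside the Jun exon, had values of 1.57 and 2.31, at the 89.5th and 88.7th percentile of shared distal regions, and the next, at 43.9 kb, 0.661 and 1.95. A region at -1.1 kb had values of 2.39 and 4.08 but lay at a start site of the divergent non-coding gene Junos. Junb had values of 4.01 and 5.08 at -7.5 kb, where Hook2 is nearest, and of 2.77 and 3.69 at -1.3 kb. Jund had 2.99 and 3.71 at -14.4 kb, nearest to Lsm4, and 2.54 and 3.83 at 54.4 kb, nearest to Rab3a.

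The leading distal regions near Fosl1 and Fosl2 lay nearer to other genes. The strongest near Fosl2, at 51.4 kb, had values of 1.34 and 5.09, and the next, at 99 kb, 1.04 and 2.03. Plb1 was the nearest gene to both. Near Fosl1 the values were 1.5 and 3.99 at 81.6 kb, where Snx32 is nearest, and 1.66 and 1.99 at 43.7 kb, where Cfl1 is nearest. Batf, with its promoter closed, still had 6 distal regions in range. The strongest were at -76.3 kb (2.81 and 2.76) and -82.7 kb (1.78 and 1.65), both in introns of Jdp2. Fos and Batf lie 213 kb apart on chromosome 12, and the Jdp2 promoter between them had values of 2.23 and 3.14.

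**Figure D4:**
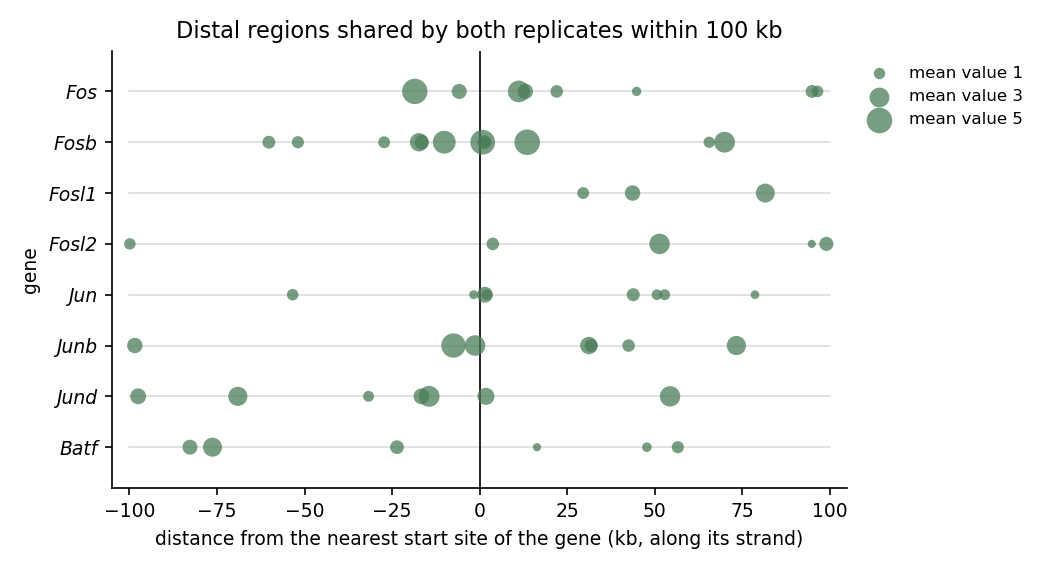
Distal regions shared by both replicates within 100 kb of each gene, by distance from the nearest start site along the gene's strand (horizontal axis, kb), with the area of a circle proportional to the mean value. Fosb had 12 regions and Fosl1 3, and the largest region near Jun was smaller than the largest near Fos, Fosb and Junb.

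AP-1 proteins can bind regulatory regions of their own genes, so the AP-1 site was also counted in the 200 bp around the midpoint of each distal region. TGACTCA was present in 10 of the 56 (17.9%), against 12.1% of all shared distal regions. Larger differences were seen for the GC box (26.8% against 8.50%) and for TGACGT (10.7% against 3.09%), which was added after the data were seen. The CRE, the MEF2 box, TGACATCA and TTACCTCA were absent from these midpoint windows. Of 14 TGACTCA matches over whole regions, 1 was footprinted in both replicates, against 2.46% of 7107 matches. It lay 94.9 kb downstream of Fos, in a region with values of 1.09 and 1.45. Of 8 TGACGT matches 1 was footprinted in both, against 15.7% of 2123, at -17.3 kb from Fosb, where a TGACTCA lay beside it and was covered in part. Both sites are shown, as the distal footprints over letters that AP-1 or CREB family proteins can bind (chr12:85569825-85569911, plus strand, and chr7:19327308-19327402, minus strand).
Fos at 94.9 kb: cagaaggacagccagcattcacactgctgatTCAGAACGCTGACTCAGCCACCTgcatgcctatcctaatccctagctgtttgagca
Fosb at -17.3 kb: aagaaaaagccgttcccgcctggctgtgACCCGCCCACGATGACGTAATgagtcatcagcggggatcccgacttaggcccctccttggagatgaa

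The promoters of the partners and activators of AP-1 were almost all open. Of 24 such genes, 23 were open at the promoter in both replicates, beside the 57.9% of all genes. Of 12 basic leucine zipper partners and relatives, 11 did, and the exception was Batf3, a relative of Batf, with no peak in either. All 12 kinases and factors upstream did. The strongest were Map2k7, a kinase that activates JNK (6.31 and 8.45, mean 7.38 ± 1.51), Atf2, a partner of Jun (5.67 and 7.93, 6.80 ± 1.60), and Rps6ka5, the kinase MSK1 (6.89 and 6.68, 6.78 ± 0.149). These means lay near that of Jun.

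The tissue label was checked against cell type markers. All 4 markers of neurons in general had a promoter peak in both replicates, beside 57.9% of all protein-coding genes. So did Camk2a, Tbr1 and Neurod6, which mark excitatory neurons, while Slc17a7 had one in replicate 1 only. Of 3 markers each, astrocytes had 2 with a peak in both, oligodendrocytes 1, and inhibitory neurons and microglia 0. Gad1, of inhibitory neurons, and Cx3cr1, of microglia, had a peak in replicate 1 only. Of 4 markers of other tissues, Actn2 had a peak in both replicates. The same 57.9% applies to every list, and the markers of oligodendrocytes, inhibitory neurons and microglia fell below it. These short lists therefore do not settle the tissue label. In a tissue of mixed cells, a weak peak in many cells and a strong peak in few cannot be told apart, which holds for every value above.

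The 3 genes most like Fos were Limk2, Heca and Cpeb1. Likeness was the distance over percentile ranks, taken here among all protein-coding genes, of 4 measures, namely the promoter value in each replicate, the number of shared distal regions and the footprinted bases in the promoter. Their distances were 4.94, 4.95 and 5.35 percentile points. Each had 8 shared distal regions within 100 kb, as Fos did, and their promoter values were 2.02 and 2.91, 1.47 and 3.28, and 1.87 and 2.62.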

How the data were processed

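Each library came with 2 peak lists, footprints and FDR intervals in mm10 coordinates. The authors deposited each peak with a signal value. Neither its normalization nor the aligner and peak caller are named in the sources used here. Peak values were whole multiples of 1 step (0.00497 and 0.00892; tolerance 0.05 steps). If 1 step is 1 read per M reads, depths were 201 M and 112 M (M for mega). That depth was inferred from the values. The deposited FDR (q-value) intervals were all below 0.05, and the deposited footprints carry 1 p-value threshold, 0.01. Libraries were not pooled.

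The list with fewer peaks per library was used. Peaks of both libraries that overlapped or adjoined were merged, and a merged region with a peak of each was called shared. Overlap needed 1 bp. Start sites came from GENCODE M21. Percentiles of promoter values and footprinted bases rank a member among genes with a promoter peak in both replicates, those of distal regions among all shared distal regions, and those of likeness among all protein-coding genes. No test was run. Overlap and merging were tested on simulated data. Python 3.11.15, numpy 2.4.6, pandas 2.3.3 and pysam 0.24.0 were used.

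All members were described. Also named were the 2 strongest distal regions per member, all within 50 kb of Fos, the 3 strongest pathway genes and those without a peak, and the 3 genes most like Fos. Members, lists and motifs were chosen with earlier results of these data known. TGACGT, TGACATCA and TTACCTCA were added to 7 motifs after the data were seen. The RefSeq promoter table held 7 of the 8 members, and printed sequences came from the genome. Of the cell type markers examined, 1 is not reported here.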

Additional observations from a re-analysis of the deposited data

How the results depend on the processing

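The count of members open at the promoter in both replicates was 7 with the longer peak lists, windows of 2000 bp, the stronger 50% of peaks, and peaks needing at least 50% of their length inside the window. With windows of 100 bp it was 6, as was the count with a footprint, because the Fosb peak lies further upstream. That Fosb value was the 1 of 40 values of single members, recomputed with both replicates kept, that moved beyond the SD. A value is that of the strongest peak, so the longer lists and the stronger 50% of peaks could hardly move it. Those settings therefore test the values little. With 2 replicates, a value from 1 alone cannot move beyond the SD. Fosl1 went from 1.35 to 0.880 without replicate 2. The number of shared distal regions depended on its definition: 56 became 97 with the longer lists, 33 within 50 kb, 21 counting only regions nearest to a member, and 35 where windows of 2000 bp were kept clear of start sites. Using 1 replicate at a time, the promoter count was 7 to 7, the footprint count 7 to 7, the median promoter value 3.20 to 4.36, and the distal count 81 to 81. No paired analysis was possible because there was only 1 group. With 2 replicates, an SD is a rough measure of spread.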
